A study of Mus musculus with 10 samples.

Results

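Antigen presentation by major histocompatibility complex (MHC) molecules was followed through 5 genes: H2-Aa and H2-Eb1, which encode chains of the class II molecules, Cd74, which encodes the invariant chain, Psmb8, which encodes a catalytic subunit of the immunoproteasome, and Tapbp, which encodes tapasin. These are 5 of the 17813 genes that had a probe set naming only that gene. They were chosen by their difference of log2 signal between the stages on these same arrays, so that difference is given as a description, without a test. Each of the 5 had 1 such probe set.

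Signals were measured on Affymetrix mouse expression arrays with 5 biological replicates of each of 2 stages of mouse lung development. All embryos carried Id2-CreER and Rosa26R-fGFP, which together label cells that express Id2, and their descendants, with GFP once tamoxifen is given. At E11.5 the epithelial tips, which hold the progenitors of the lung epithelium, were cut out by hand after dispase treatment. At E17.5, 1 day after the mother received tamoxifen at 150 µg per g body weight at E16.5, lungs were dissociated with trypsin/EDTA and GFP+ cells were sorted by flow cytometry. The E17.5 cells therefore include some progeny of the tips and any other cell that expressed Id2 at the time of labelling. Stage, tamoxifen and way of isolation changed together, and their parts in any difference cannot be told apart. The labels do not say how many embryos or litters went into a replicate.

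Class II molecules are pairs of an alpha and a beta chain that carry peptides from endosomes to the cell surface for CD4+ T cells. The invariant chain holds the new pair together and blocks its groove until endosomal proteases cut it away and the DM molecule loads a peptide. Class I molecules instead carry peptides cut by the proteasome and pumped into the endoplasmic reticulum by the TAP transporter, where tapasin holds the empty molecule to TAP. Class II genes are best known from dendritic cells, macrophages and B cells, and alveolar type 2 cells of the adult lung also express them. CIITA is the master coactivator of class II genes and acts through RFX, CREB and NF-Y proteins bound at their promoters, and interferon gamma induces many genes of both routes.

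The arrays within a stage were close to each other, with correlations of 0.988 to 0.996 among E11.5 and 0.984 to 0.993 among E17.5 arrays over the 17813 genes. Between stages the correlations were 0.819 to 0.847. Array medians lay between 7.01 and 7.14 (log2 signal) at E11.5 and between 7.14 and 7.23 at E17.5, and upper quartiles between 9.42 and 9.46 and between 9.996 and 10.04. At E17.5, 6568 genes were called higher, 36.9% of those tested, and 5609 were called lower, 31.5% (limma, Benjamini-Hochberg adjusted p under 0.05). Calls were therefore common in both directions, and counts for antigen presentation genes are read against these shares. All values below are log2 signals, and levels of different probe sets are not compared with each other.

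The class II chains H2-Aa and H2-Eb1 were far higher at E17.5 than at E11.5 on every array. H2-Aa read 4.88, 4.56, 4.44, 4.61 and 4.49 on E11.5 replicates 1 to 5 and 10.12, 10.53, 10.92, 10.39 and 10.63 on E17.5 replicates 1 to 5. H2-Eb1 read 5.85, 6.13, 6.01, 6.05 and 5.83 at E11.5 and 10.21, 10.78, 11.03, 11.03 and 11.09 at E17.5. For both genes the stages were far apart, with 5.24 (H2-Aa) and 4.08 (H2-Eb1) between the highest E11.5 and the lowest E17.5 array. The mean of H2-Aa was 4.59 ± 0.17 at E11.5 and 10.52 ± 0.30 at E17.5 (SD, n = 5), a difference of 5.92 or 60.7-fold. The mean of H2-Eb1 was 5.97 ± 0.13 and 10.83 ± 0.37, a difference of 4.86 or 29.0-fold. The H2-Aa probe set carries the suffix _x, which Affymetrix gives where probes may also bind other transcripts, so other class II chains may add to its signal.

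Cd74, the chaperone of both chains, was also higher at E17.5 on every array. It read 8.41, 8.44, 8.34, 8.49 and 8.23 at E11.5 and 12.72, 12.87, 13.10, 12.92 and 13.22 at E17.5. The means were 8.38 ± 0.10 and 12.97 ± 0.19, a difference of 4.58 or 24-fold, and its E17.5 arrays all lay above the E11.5 arrays, by at least 4.23.

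On the class I route, Psmb8 and Tapbp were also higher at E17.5 on every array. Psmb8 is built into the proteasome in place of Psmb5, which changes the peptides it releases, and read 4.72, 4.82, 4.93, 4.90 and 4.69 at E11.5 and 10.41, 10.39, 10.37, 10.42 and 10.29 at E17.5. Tapbp read 8.39, 8.55, 8.63, 8.33 and 8.36 at E11.5 and 13.46, 13.30, 13.29, 13.19 and 13.32 at E17.5. Psmb8 went from 4.81 ± 0.11 to 10.37 ± 0.05, a difference of 5.56 or 47.3-fold. Tapbp went from 8.45 ± 0.13 to 13.31 ± 0.09, a difference of 4.86 or 29.1-fold. The E17.5 arrays of all 5 genes lay above all E11.5 arrays, as they did for 32.3% of all genes. Since the genes were picked for this difference, nothing is read from that count.

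**Figure D1:**
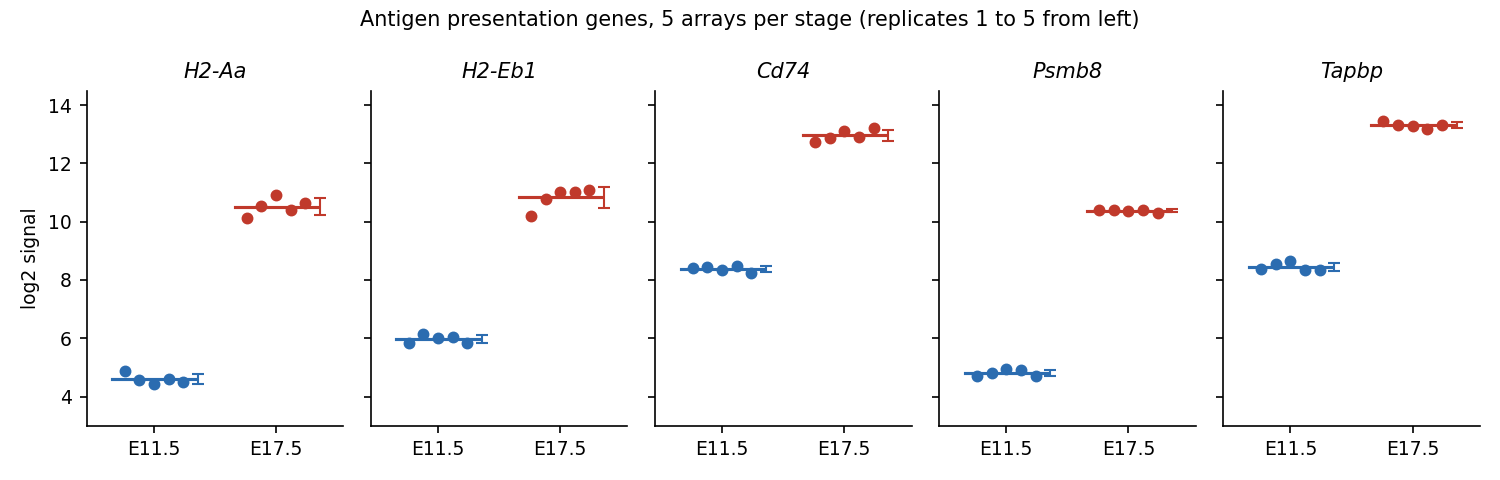
The log2 signal of each of the 5 genes (vertical axis) on the 5 E11.5 arrays (blue) and the 5 E17.5 arrays (red); points are arrays with replicates 1 to 5 from left to right, horizontal lines are means and error bars are SD. In every panel the stages are apart, by 4.08 (H2-Eb1) to 5.36 (Psmb8) between the nearest arrays, and at E17.5 the class II genes spread more than Psmb8 and Tapbp.

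The proximal promoters of H2-Aa and H2-Eb1 hold words known from the sites that RFX and NF-Y proteins bind, and they are printed because the regulators are described further on. The sequences are upstream stretches from RefSeq (GRCm38.p6), 5′ to 3′ on the strand of the gene. Capitals mark the word GCAAC, a part of the X box, and the word CTGATTGG, the Y box with its inverted CCAAT. These words were chosen after the H2-Aa and H2-Eb1 sequences had been read.
H2-Aa, chr17:34287847-34287914, minus strand: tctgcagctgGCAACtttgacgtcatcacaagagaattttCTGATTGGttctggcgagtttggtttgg
H2-Eb1, chr17:34305766-34305832, plus strand: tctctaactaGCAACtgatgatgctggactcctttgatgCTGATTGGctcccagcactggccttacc
H2-Oa, chr17:34092293-34092360, plus strand: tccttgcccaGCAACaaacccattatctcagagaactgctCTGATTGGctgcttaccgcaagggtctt
H2-Eb2, chr17:34325533-34325599, plus strand: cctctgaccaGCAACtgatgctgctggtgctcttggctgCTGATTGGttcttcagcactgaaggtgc
Between the words lie 25 bases in H2-Aa and H2-Oa and 24 bases in H2-Eb1 and H2-Eb2. The windows searched, on both strands, were the 250 bases before each start site, and the pair with 15 to 35 bases between the words stood in 28 of 32851 windows, 0.0852%. CTGATTGG alone stood in 3.83% of windows. The words came from H2-Aa and H2-Eb1, so their own matches were fixed by that choice. Of the 6 class II genes that were measured and had a window, 4 held the pair: H2-Aa, H2-Eb1, H2-Oa and H2-Eb2. H2-DMb2 had a window without the pair, as did either H2-Ab1 or H2-DMa, which were both called higher at E17.5. H2-Oa and H2-Eb2 are printed because they hold it and yet, unlike H2-Aa and H2-Eb1, did not differ detectably between the stages. A repeat of GAAA with 2 bases between is the core of the interferon response element. It was found for 2 of the 51 antigen presentation genes with a window, Ctss and Irf2, and in 2.98% of all windows. A match says only that the letters are present. No window was at hand for Cd74.

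Beyond these 5 genes, the antigen presentation lists held 63 genes that could be tested. Of these, 37 were called higher at E17.5, 15 lower, and 11 did not pass, beside 36.9% called higher and 31.5% lower over all genes. The median difference of the 63 genes was 0.93, beside 0.03 over all genes. The lists are described one by one, and no test compared them.

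Of the class II chains and loading genes, 2 of 5 rose and 3 did not pass, beside 36.9% called higher over all genes, and 1 of 4 rose among probe sets without the suffixes _x, _s and _a. H2-Ab1, the beta chain that pairs with H2-Aa, rose by 1.79 (3.45-fold, SE 0.28, adjusted p = 9.9e-05, limma). Its arrays read 5.69, 5.34, 5.88, 6.05 and 5.99 at E11.5 and 6.88, 7.84, 8.48, 7.72 and 6.96 at E17.5, so the stages did not overlap, but E17.5 arrays differed by up to 1.601 among themselves, and its probe set also carries the suffix _x. H2-DMa, a chain of the molecule that exchanges the invariant chain's remnant for a peptide, rose by 3.36 (10.3-fold, SE 0.23, adjusted p = 5.5e-08, limma). H2-Oa, part of an inhibitor of DM, differed by -0.01 (adjusted p = 0.96, limma), and H2-Eb2, a second E beta chain gene, by 0.03 (adjusted p = 0.82, limma). H2-DMb2, a partner chain of H2-DMa, read 6.48 ± 0.60 at E11.5 and 5.87 ± 0.34 at E17.5 (adjusted p = 0.06, limma), and was called lower without E11.5 replicate 4 or 5 or E17.5 replicate 1. The probe set of H2-Ea, the alpha partner of H2-Eb1, which was named after its values had been seen, read 4.15 and 4.50 (adjusted p = 0.08, limma). The transgenic strains were kept on C57Bl/6J, a strain known to carry an H2-Ea allele that is not expressed.

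Among the 7 genes that prepare peptides for class II, 6 rose and 1 fell, beside 36.9% called higher and 31.5% lower over all genes. Ifi30, the thiol reductase that opens disulphide bonds of endosomal proteins, rose by 5.09, from 8.28 ± 0.12 to 13.37 ± 0.09 (34-fold, adjusted p = 5.6e-13, limma). The cathepsins Ctsb, Ctss and Ctsl rose by 4.75, 4.59 and 3.06, and the proteases Lgmn and Ctsd by 1.48 and 0.94. Cathepsin S and cathepsin L are known for the last cuts of the invariant chain. Ctss read 8.23, 6.84, 7.62, 7.41 and 7.30 at E11.5 and 12.38, 12.24, 12.30, 11.61 and 11.83 at E17.5. Marchf1, the ubiquitin ligase that removes class II molecules from the surface of the cell, fell by 0.69 (adjusted p = 2.8e-05, limma). It was a dim gene (mean signal under 7.18), averaging 4.86 at E11.5 and 4.17 at E17.5.

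Of the 9 regulators, 4 rose, 4 fell and 1 did not pass, with a median difference of 0.01. Over all genes 36.9% rose and 31.5% fell, so nothing particular to the regulators is read from their count. It became 2 higher and 6 lower after quantile normalisation and 2 and 4 after median centring. Without dim genes (mean signal under 7.18) it was 2 higher and 4 lower of 7, with Ciita and Nlrc5 left out as dim. Ciita read 4.22, 4.22, 4.47, 4.24 and 4.33 at E11.5 and 4.73, 4.78, 4.87, 4.56 and 5.39 at E17.5. It rose by 0.57 (1.49-fold, SE 0.14, adjusted p = 0.0032, limma), with all E17.5 arrays above all E11.5 arrays but by as little as 0.09 between the nearest. Nlrc5, the corresponding coactivator of class I genes, rose by 1.43, from 4.01 ± 0.55 to 5.44 ± 0.51 (2.69-fold, SE 0.29, adjusted p = 0.00077, limma). Rfx5, the DNA-binding subunit of RFX, read 11.63 ± 0.09 and 11.63 ± 0.11 (adjusted p = 0.95, limma). Its partners Rfxank and Rfxap rose by 0.36 and 0.23, but all 3 RFX genes were lower at E17.5 after quantile normalisation, by 0.52 (Rfx5), 0.15 (Rfxank) and 0.31 (Rfxap), and median centring left no call for Rfxank and Rfxap. The NF-Y subunits Nfyb, Nfya and Nfyc fell by 2.62, 1.503 and 0.23, and Creb1 fell by 1.73. The call of Nfyc was lost without E17.5 replicate 5 and with a replicate block.

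**Figure D2:**
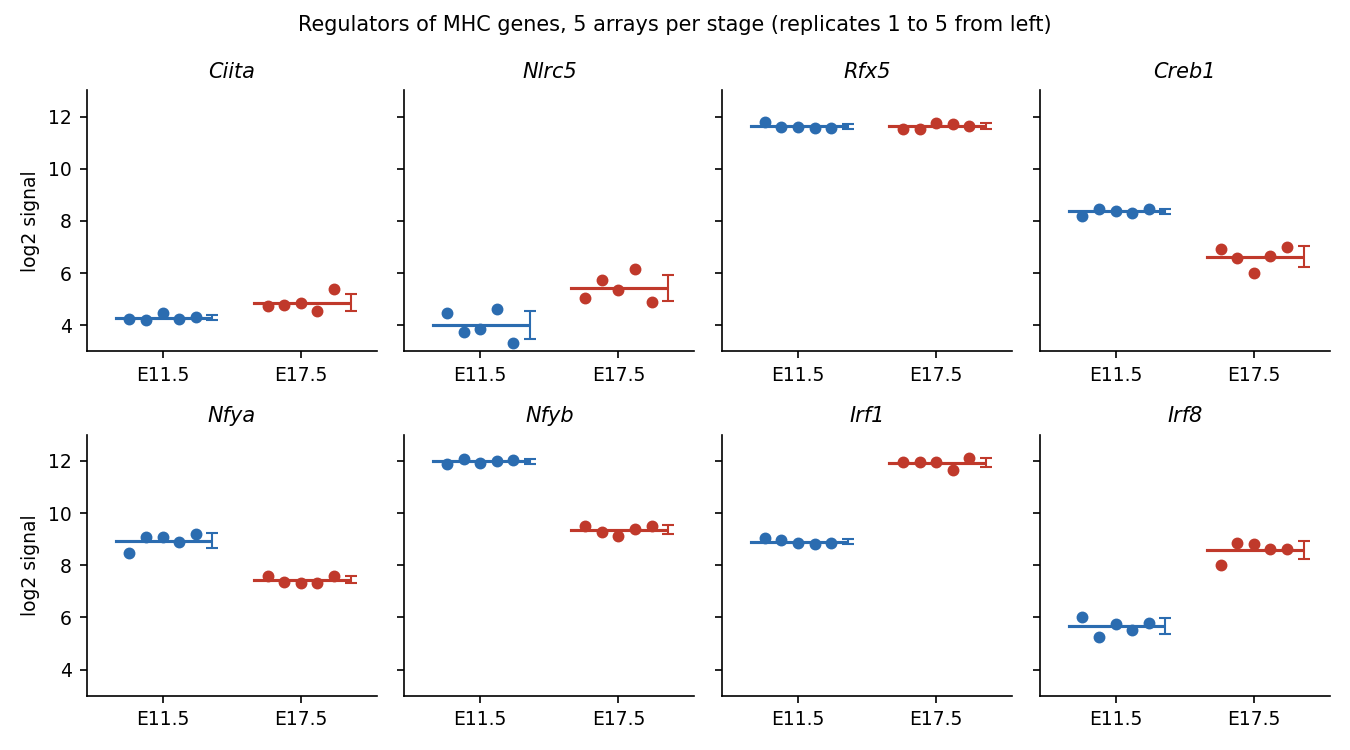
Log2 signal (vertical axis) of 8 regulators on the E11.5 (blue) and E17.5 (red) arrays; points are arrays with replicates 1 to 5 from left to right, lines are means and error bars SD. Ciita and Nlrc5 are higher at E17.5 by 0.57 and 1.43, Rfx5 is level, Creb1, Nfya and Nfyb are lower at E17.5, and Irf1 and Irf8 are higher.

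Interferon gamma receptor and signalling genes rose in 7 of 8 cases, beside 36.9% called higher over all genes. Irf1, a transcription factor induced by interferon gamma, rose by 3.03 (8.16-fold, adjusted p = 5.2e-11, limma), and the receptor chain Ifngr2 rose by 2.96. Irf8, a factor of macrophages, dendritic cells and B cells, rose by 2.92, and Irf2, Jak1 and Ifngr1 rose by 2.20, 2.02 and 1.19. The kinase Jak2 fell by 0.33. Ifng itself, made by T and NK cells, was called higher by 0.65 (adjusted p = 0.015, limma). It was a dim gene (mean signal under 7.18), averaging 4.07 in the earlier stage and 4.72 in the later. Its stages overlapped, because the highest E11.5 array (4.49) exceeded the lowest E17.5 array (4.25).

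Of 12 class I chains and related molecules, 3 rose, 4 fell and 5 did not pass, with a median difference of -0.05. These shares were near those over all genes. Fcgrt, the receptor that recycles IgG, rose by 2.87, H2-M3, which presents formylated peptides, by 1.11, and Mr1, which presents vitamin metabolites, by 1.06. H2-Q2 fell by 3.58 (12.0-fold, adjusted p = 5.5e-10, limma), H2-Q10 by 2.33, H2-Bl by 1.76, and Cd1d1, which presents lipids, by 1.13. These class I genes are close copies of each other, so signal may be shared between their probe sets. H2-D1, a classical class I chain on a probe set with suffix _x, read 6.28, 7.67, 8.96, 5.33 and 5.90 at E17.5, an SD of 1.47, and 6.75 ± 0.49 at E11.5 (adjusted p = 0.92, limma). H2-T3, H2-T24, H2-M9 and Cd1d2 differed by 0.35, -0.54, 0.03 and -0.13 without passing. H2-K1 and B2m were not analysed here.

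Of 7 class I loading genes, 5 rose, 1 fell and 1 did not pass, beside 36.9% called higher and 31.5% lower over all genes. Erap1, the aminopeptidase that trims peptides, rose by 2.78, and the transporter subunits Tap1 and Tap2 by 2.70 and 1.73. The chaperones Pdia3 and Canx rose by 1.75 and 1.45. Tap1 read 6.55 to 6.70 on the E11.5 arrays and 9.20 to 9.42 on those of E17.5, so like Tapbp it varied little within a stage. Calr, another chaperone of the loading complex, fell by 0.69, and Tapbpl, a relative of tapasin, differed by 0.02 (adjusted p = 0.89, limma).

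Of the proteasome genes, the immunoproteasome subunit Psmb10, which takes the place of Psmb7, rose by 0.94. Psme1, a subunit of the PA28 activator induced by interferon gamma, rose by 0.93, and Psme3, the nuclear PA28 gamma, which interferon gamma is not known to induce, rose by 2.13. The standard catalytic subunits Psmb5, Psmb7 and Psmb6 fell by 0.53 (adjusted p = 0.00015), 0.47 (adjusted p = 0.00038) and 0.36 (adjusted p = 0.0083, all limma). Psmb5 is the subunit that Psmb8 replaces. Psmb9 and Psme2 were not analysed here.

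Of 9 costimulatory and adhesion ligands, 7 rose, beside 36.9% called higher over all genes. Cd40 rose by 2.93, Icam1 by 2.78, Cd86 by 2.46, Cd80 by 1.69 and the checkpoint ligand Cd274 by 1.22, and Icosl, the ligand of ICOS on T cells, rose 5.66-fold. Pdcd1lg2, another checkpoint ligand, was called higher by 0.65 (adjusted p = 0.013, limma). It was a dim gene, averaging 3.38 at E11.5 and 4.03 at E17.5. Its stages overlapped, with 3.68 on the highest E11.5 array and 3.37 on the lowest E17.5 array. Tnfsf9 fell by 0.42 and Tnfsf4 differed by 0.06 (adjusted p = 0.62, limma).

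**Figure D3:**
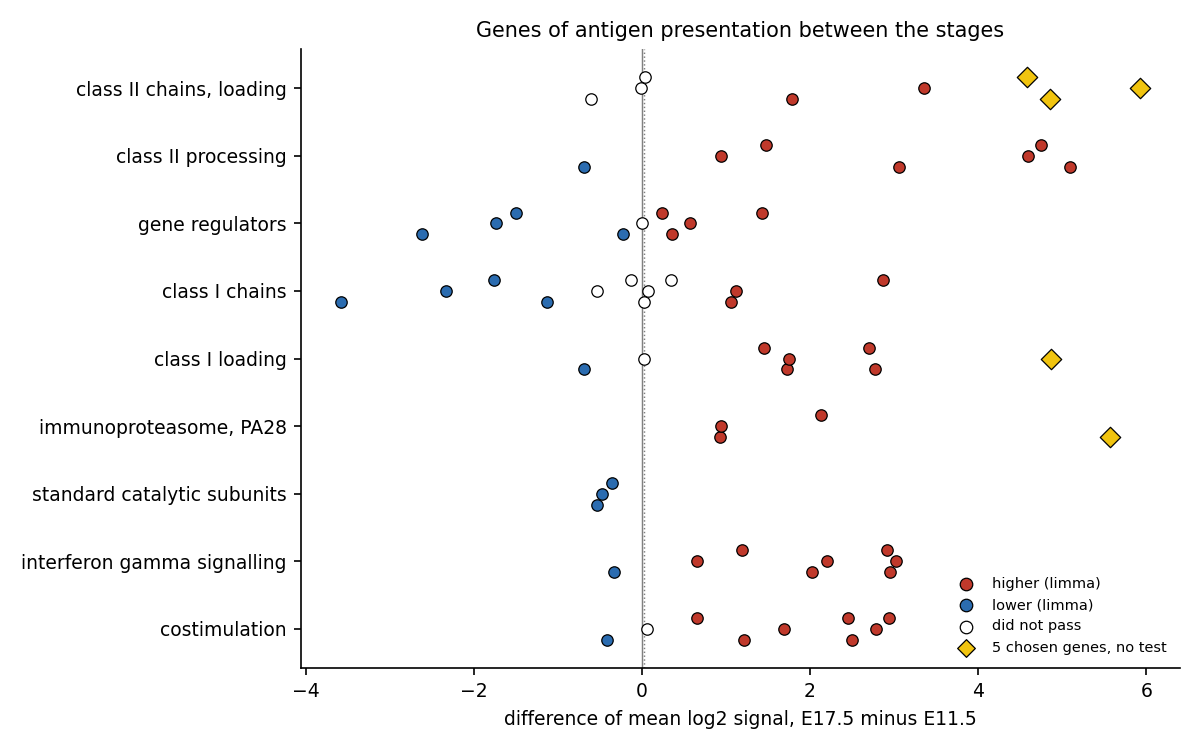
Difference of mean log2 signal, E17.5 minus E11.5 (horizontal axis), for each gene of 9 antigen presentation lists (rows); red and blue points were called higher or lower by limma, white points did not pass, yellow diamonds are the 5 chosen genes, which were not tested, and the dotted line is the median of all genes at 0.03. Class II processing, interferon gamma signalling and costimulation lie mostly to the right, the standard catalytic subunits to the left, and regulators and class I chains on both sides.

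The labelled cell type was checked against marker lists, whose counts stand beside 36.9% called higher and 31.5% lower over all genes. The lung epithelial list averaged 11.56 to 11.76 on the E11.5 arrays and 12.20 to 12.46 on those of E17.5, and Epcam and Cdh1 rose by 1.91 and 0.64 while Nkx2-1 differed by 0.10 (adjusted p = 0.72, limma). Of 6 tip markers, 3 rose, 2 fell and 1 did not pass, with Id2 up by 2.10, Etv4 down by 1.87 and Sox9 at -0.02 (adjusted p = 0.92, limma). Alveolar type 2 genes averaged 7.59 to 7.93 on the E11.5 arrays and 12.14 to 12.39 on those of E17.5, where 8 of 9 rose, Sftpc by 2.54, Sftpb by 4.96 and Sftpa1 by 6.42. The ninth, Lpcat1, an enzyme of surfactant lipid synthesis, read lower by 4.73, from 7.90 to 3.17. This rests on 1 probe set, whose E17.5 signal lay near the lowest on any array (2.47). In the paper, LPCAT1 protein was robustly detected in tips from E16.5 and rose further in type 2 cells. Protein is another measure than array signal, and why they differ was not tested. Alveolar type 1 genes rose in 7 of 8 cases, among them Ager by 4.13, Pdpn by 1.34 and Hopx by 5.33.

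Markers of other cells moved with the stage too, and their counts stand beside the same shares over all genes (36.9% higher, 31.5% lower). In these bulk samples, more cells of a type and more RNA per cell cannot be told apart. Macrophage markers averaged 5.26 to 5.92 on the E11.5 arrays and 7.62 to 8.49 on those of E17.5. Of 26 measured, 21 rose, 2 fell and 3 did not pass, with Ptprc (CD45, on all white blood cells) up by 4.60, Csf1r by 4.22 and Cd68 by 1.11. Dendritic cell markers averaged 5.81 to 5.99 and 6.19 to 6.44, where 4 of 11 rose and 3 fell, with Itgax up by 2.05, Flt3 up by 0.91 and Zbtb46 down by 1.13. B cell markers averaged 5.18 to 5.37 and 5.61 to 5.89, where 4 of 10 rose and 3 fell. Cd79b rose by 4.30, Ms4a1 by 0.29 from 3.21 to 3.50, and Cd79a fell by 0.31. T and NK cell markers averaged 4.28 to 4.51 and 5.73 to 7.29, where 8 of 11 rose. Cd3g rose by 2.22, while Cd3e differed by 1.26 (adjusted p = 0.11, limma) and Cd3d by 1.19 (adjusted p = 0.052, limma). Endothelial markers rose in 11 of 12 cases, from averages of 5.48 to 6.60 to averages of 9.01 to 11.02, with Pecam1 up by 5.27, Kdr by 4.17 and Cdh5 by 1.28. Mesenchymal markers rose in 7 of 12 cases and fell in 3, from 7.68 to 8.78 to 9.13 to 10.21, with Col1a2 up by 2.77, Col3a1 by 2.12 and Col1a1 differing by 0.57 (adjusted p = 0.20, limma). The table holds no calls of presence, and no value is 0. The part of these cells in the signals of H2-Aa, H2-Eb1, Cd74, Psmb8 and Tapbp was not tested.

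Among the E17.5 arrays, H2-Aa, H2-Eb1 and Cd74 were each lowest on replicate 1, by 0.50, 0.77 and 0.30 against the mean of the other 4 arrays. The rising class II genes H2-Ab1 and H2-DMa were also lowest there, by 0.87 and 0.46. For H2-Ab1, however, replicate 5 (6.96) lay close to replicate 1 (6.88), and replicates 2 to 4 read 7.72 to 8.48. The class II genes that did not pass took other orders. H2-Oa and H2-Eb2 were lowest on replicate 5, and H2-DMb2 was lowest on replicate 3 and highest on replicate 1. Replicate 1 was the lowest E17.5 array for 20.9% of all genes, and the shared place was noticed in the data, so it is given without a test. It held for all 5 genes after quantile normalisation and after median centring. At the upper end the genes differed, with replicate 3 highest for H2-Aa, H2-Ab1 and H2-DMa and replicate 5 for Cd74. For H2-Eb1 replicate 5 (11.09) lay close to replicates 3 and 4 (both 11.03), and replicate 3 became the highest after quantile normalisation. Without replicate 1 the differences between stages were 6.02 for H2-Aa, 5.01 for H2-Eb1 and 4.64 for Cd74.

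Psmb8 spanned 0.13 over the E17.5 arrays and Tapbp 0.26, beside 0.80 for H2-Aa, 0.88 for H2-Eb1 and 0.49 for Cd74. Only 1.49% of all genes had a smaller E17.5 SD than Psmb8 and 8.98% a smaller one than Tapbp, whereas 71.2% were below H2-Aa, 81.4% below H2-Eb1 and 43.2% below Cd74. Psmb8 was highest on replicate 4 and lowest on replicate 5, and Tapbp was highest on replicate 1 and lowest on replicate 4. With a range this small, the order of the Psmb8 arrays carries little, and its highest array became replicate 1 after quantile normalisation.

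The marker lists took different orders on the same arrays. The dendritic cell genes Itgax and Flt3, and Irf8, were lowest on replicate 1, by 0.68, 0.58 and 0.72 against the mean of the other arrays. Of the 11 dendritic cell markers, 4 were lowest and 4 were highest on replicate 1, the latter being Clec10a, Cd83, Ly75 and Ccr7, which were named after their values had been seen. The dendritic list as a whole averaged 6.31, 6.44, 6.32, 6.43 and 6.19 on replicates 1 to 5, so its lowest array was replicate 5. The macrophage list averaged 8.49, 8.47, 8.46, 7.62 and 7.86 and was thus lower on replicates 4 and 5 than on replicate 1, where H2-Aa, H2-Eb1 and Cd74 were lowest. Ctss was highest on replicate 1 and lowest on replicate 4. The B cell list averaged 5.61 on replicate 1 and 5.77 to 5.89 on the others. Of its 10 markers, 3 were lowest on replicate 1 (Ms4a1, Blnk and Ebf1) and 2 were highest there (Cd79b and Pax5). Ebf1 read 6.23 on replicate 1 and 7.32 to 8.83 on the others, the widest E17.5 range of the list (2.60). The place of replicate 1 as the lowest array of the B cell list depends on this gene. Like the mesenchymal list, Ebf1 was lowest on replicate 1, then on replicates 4 and 3, and why was not tested. Blnk, Ebf1 and Pax5 were named after their values had been seen. The mesenchymal list was lowest on replicate 1, with 9.13 against 9.36 to 10.21. Of its 12 genes, 10 were lowest there and 0 were highest. The lung epithelial, alveolar type 1 and tip lists were instead highest on replicate 1. They averaged 12.46, 12.74 and 10.34 there, against 12.20 to 12.29, 12.18 to 12.60 and 9.96 to 10.29 on the others. Of their genes, 7 of 12, 5 of 8 and 3 of 6 were highest on replicate 1, and 0, 0 and 1 were lowest. The endothelial list was lowest on replicate 4 (9.01) and highest on replicate 5 (11.02), and the alveolar type 2 list ranged only from 12.14 to 12.39, with replicate 1 the highest. On replicate 4 the T and NK list stood at 7.29 and at 5.73 to 6.001 on the others, and without that array the differences between stages were 5.96 for H2-Aa, 4.80 for H2-Eb1, 4.60 for Cd74, 5.55 for Psmb8 and 4.89 for Tapbp. Whether the makeup of the sorted cells shaped the order of the class II genes was not tested.

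**Figure D4:**
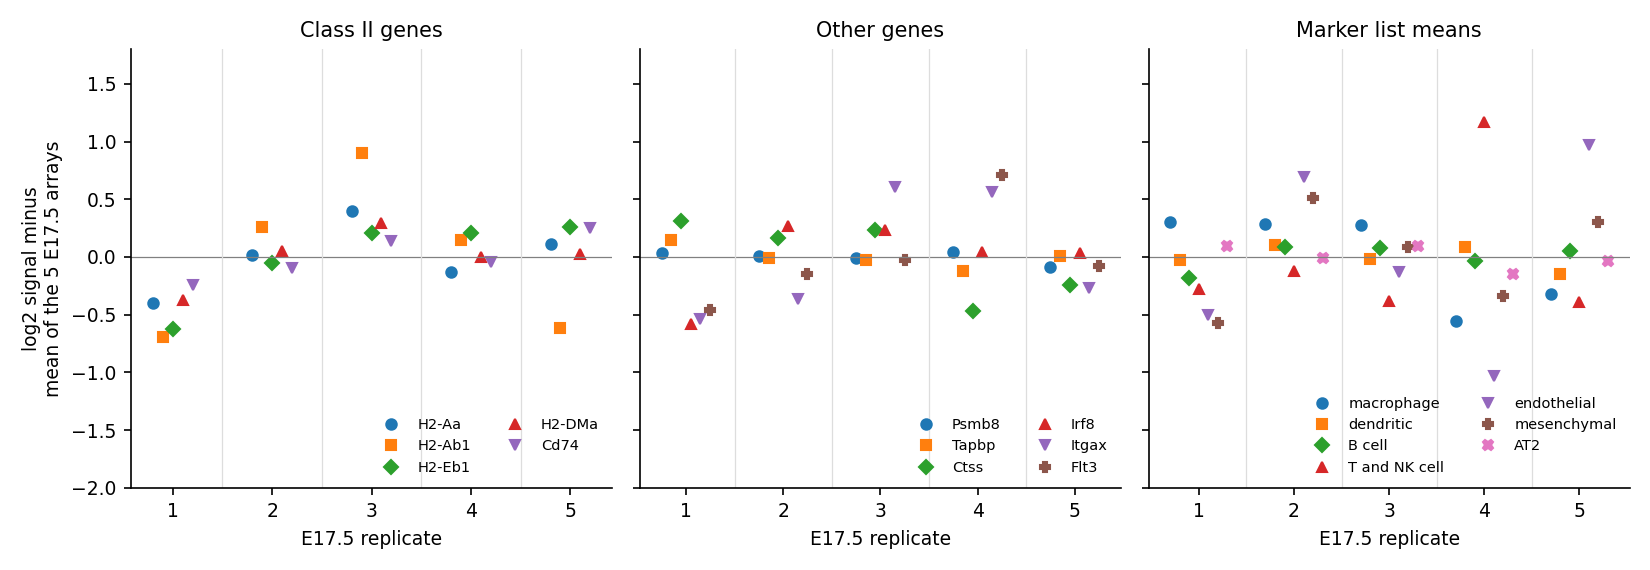
Log2 signal minus its mean over the 5 E17.5 arrays (vertical axis) on E17.5 replicates 1 to 5 (horizontal axis, points offset for clarity), for class II genes, other genes and marker list means; each point is 1 array. The 5 class II genes shown are lowest on replicate 1, Psmb8 and Tapbp stay near 0, the macrophage list is lower on replicates 4 and 5 and the T and NK list stands out on replicate 4.

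The genes with the nearest profiles were found by the root mean square difference over the 10 arrays, each profile centred on its own mean. For H2-Eb1 they were Slco2a1 (0.195), Cd74 (0.209) and Ahr (0.226), so Cd74 was the only one of the 5 among another's nearest 3. For H2-Aa they were Ltbp3 (0.239), Mif (0.244) and Tpt1 (0.249), and for Cd74 Ptpn18 (0.133), Eef2 (0.148) and Dcaf7 (0.162). Psmb8 and Tapbp had closer neighbours. Mapkapk5 (0.0855), Aff1 (0.110) and Actr1a (0.118) were nearest to Psmb8, and Emc7 (0.0982), Ppp2r5a (0.104) and Agrn (0.108) to Tapbp. With 2 stages, this measure mainly reflects the size of the difference between stages.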

How the data were processed

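The deposited table held log2 signals of 21204 probe sets on 10 arrays, from 2.47 to 15.03, as the authors made them in Bioconductor. How they summarised and normalised the probes is not stated in the paper or the labels. No further scaling was applied. Platform annotation gave 1 gene to 17981 probe sets, several to 514 and none to 2709, and the latter groups were left out. A gene with several probe sets (167 genes) was taken at the one with the highest mean over the 10 arrays. E17.5 was compared with E11.5 by limma 3.58.1 (lmFit and eBayes, R 4.3.3) over 17813 genes with Benjamini-Hochberg adjustment, called under 0.05; the procedure was tested on simulated data. Precision is limited by the 5 arrays per stage.

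The 5 genes, the lists and the tests were chosen with earlier results of these data known. Named genes were, in each list, those not called and up to 6 called with the largest differences; in each marker list, the first 3 measured; and the 3 nearest profiles of each of the 5 genes. Alternatives were quantile normalisation, median centring, other choices of probe set, a filter on dim genes, a replicate block, robust moderation, array weights, the mean on the linear scale and leaving out each array. Promoter sequences and their coordinates are from RefSeq (GRCm38.p6). Figures were drawn with matplotlib 3.10.9.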

Additional observations from a re-analysis of the deposited data

Results flagged for a closer look

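In 15 of the 216 sets of 5 values checked, 1 array lay far from the other 4 of its stage, by Dixon's criterion of 0.71; chance alone gives about 11. On E17.5 replicate 4 the T cell genes Cd3e (8.48, next 5.07), Cd3d (8.03, next 5.52) and Cd3g (8.18, next 6.34) stood above the others, as did the T and NK list (7.29, next 6.001). On E17.5 replicate 1, Irf8 was low (8.01, next 8.62) and Cd79b, a B cell receptor component, was high (10.81, next 10.31). On E11.5 replicate 1, Cd86 (4.39, next 4.02), Jak1 (9.44, next 8.93) and Rfx5 (11.79, next 11.62) were high. The proteasome genes Psmb6 (13.47, next 13.76), Psmb7 (12.56, next 12.72) and Psme1 (12.22, next 12.59), Nkx2-1 (8.73, next 9.49) and the lung epithelial list (11.56, next 11.73) were low on that array. On E11.5 replicate 3, Tnfsf4 was high (4.09, next 3.81). None of H2-Aa, H2-Eb1, Cd74, Psmb8 and Tapbp had such an array.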

How the results depend on the processing

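Each of the 5 genes stayed higher at E17.5 under every alternative it could be computed for. Quantile normalisation gave 5.64 for H2-Aa, 4.56 for H2-Eb1, 4.14 for Cd74, 5.28 for Psmb8 and 4.43 for Tapbp, and median centring gave 5.43 for Psmb8 and 4.73 for Tapbp. Quantile normalisation shifted the median of all genes from 0.03 to -0.04 and median centring to -0.10; they called 5676 and 5920 genes higher and 6949 and 6576 lower. Quantile normalisation reversed Rfx5 (-0.52), Rfxank (-0.15) and Rfxap (-0.31), and the cause was not tested. Without dim genes, 4739 of 9705 genes were called higher and 3404 lower, so the shares called over all genes depend on this filter. In that setting 26 of 40 other antigen presentation genes were called higher and 12 lower. The Psmb8 signal on E17.5 replicate 1 minus the others was 0.10 after median centring. Without each array in turn, 6356 to 6596 genes were called higher and 5384 to 5616 lower, and 36 to 37 and 14 to 16 of the 63 other antigen presentation genes. Same-numbered replicates did not deviate together (correlations -0.29 to 0.07), so the numbers were not taken as pairs; with a replicate block 6385 genes were called higher and 5349 lower, and 36 and 15 of the 63. Only H2-Eb1 and Tapbp of the 5 have probe sets without the suffixes _x, _s or _a. H2-DMb2 was called lower after median centring (-0.74), with the block and without E11.5 replicate 4 (-0.70), E11.5 replicate 5 (-0.77) or E17.5 replicate 1 (-0.72). H2-T24 was called lower without E11.5 replicate 2 (-0.94) and H2-T3 higher without E17.5 replicate 2 (0.65). Nfyc lost its call with the block and without E17.5 replicate 5 (-0.21), and Rfxank after median centring (0.23). Rfxap lost its call after median centring (0.10), with the block, with array weights (0.17), without E11.5 replicate 1, 4 or 5, and without E17.5 replicate 1, 2, 3 or 4 (0.19 to 0.25).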
